A study of Mus musculus with 30 samples.

Results

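The oligoadenylate synthetase (OAS) family of the mouse was described here through 8 genes, Oas1a, Oas1b, Oas1c, Oas1g, Oas2, Oas3, Oasl1 and Oasl2, in mice lacking Clpp and in wild-type littermates. A gene was measured by a probe set annotated to its symbol alone. This applied to 7 of the 8 genes, with 1 probe set each, among 17097 genes in all. Oas1a had no probe set of its own and is not analysed here, and whether the Oas1g probe set also binds Oas1a RNA was not tested. Clpp encodes the proteolytic subunit of a protease of the mitochondrial matrix. Knockout and wild-type mice were both on a C57BL/6 background, and brain, heart, testis, liver and skeletal muscle of each genotype gave 3 arrays apiece, which makes 15 knockout and 15 wild-type arrays. The way the Clpp allele was made, age and sex are not given in the sources used here. The labels do not say whether replicates are separate animals or whether the same animals gave several tissues, so p-values measure the spread between these samples.

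OAS enzymes sense double-stranded RNA. On binding it they join ATP into short 2′,5′-linked oligoadenylates, second messengers that lead to the cutting of viral and cellular RNA. The genes are induced by type I and type III interferons, whose receptors activate a complex containing STAT2 and IRF9 that binds the interferon-stimulated response element (ISRE) in promoters. In the mouse, Oas1a, Oas1g, Oas2 and Oas3 encode active synthetases, with Oas2 and Oas3 built from repeated OAS units. Oasl1 has no synthetase activity and restrains translation of Irf7 in the mouse, while Oasl2 keeps its activity. Oas1b in its full-length form gives resistance to flaviviruses, and RefSeq lists it as a transcribed pseudogene in the reference strain. All 8 genes lie on chromosome 5, where Oasl2 neighbours Oasl1 and the others sit in a cluster of their own.

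RefSeq promoter windows, from 250 bases before to 50 bases after the annotated gene start, were held for 6 of the 8 members (GRCm38.p6), and not for Oas1b or Oas2. They were searched on both strands for the ISRE core, spelled GAAA, any 2 bases and GAAA again. It matched in 4 of the 6 windows, those of Oas1a, Oas1g, Oas1c and Oas3, against 1131 of 32851 windows of the same length (3.44%). The 60 bases around the matches are shown because the place and strand of the match differ among members, and capitals mark the bases covered by a match. The Oas1a stretch is chr5:120907526-120907585 and the Oas1g stretch is chr5:120887614-120887673, both from 60 bases before the start to the base before it. The Oas1c stretch is chr5:120812589-120812648 and the Oas3 stretch is chr5:120777695-120777754. All 4 are given 5′ to 3′ on the minus strand, from which these genes are transcribed.
Oas1a: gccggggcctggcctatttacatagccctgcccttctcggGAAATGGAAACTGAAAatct
Oas1g: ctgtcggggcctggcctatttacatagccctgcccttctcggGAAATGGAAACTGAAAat
Oas1c: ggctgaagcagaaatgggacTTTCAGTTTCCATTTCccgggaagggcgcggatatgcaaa
Oas3: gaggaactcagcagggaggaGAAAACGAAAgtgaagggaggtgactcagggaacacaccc

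Oas1a and Oas1g each held 2 overlapping matches of the core on the strand of the gene, at -20 to -5 and -18 to -3 from the start. Their windows were 85.3% identical over 306 aligned positions, while the other 14 pairs of member windows were 45.9% to 51.6% identical. Oas1c held 2 overlapping matches on the opposite strand at -114 to -99, spelling the same bases as those of Oas1g read in reverse complement. Oas3 held 1 match at -75 to -66. A shorter half-site, AANNGAAA, lies inside every match of the ISRE core and was found in 23.9% of all windows and in 5 of the 6 member windows. Oasl1 had no match of the core but 3 half-sites, of which 2 are in capitals in chr5:114923043-114923102 on the plus strand, its own.
Oasl1: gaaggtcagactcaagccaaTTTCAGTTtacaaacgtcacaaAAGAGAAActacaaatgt

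The GAS element TTCNNNGAA, a pattern that reads the same on both strands, matched in the Oas1a window alone among the 6 and in 8.3% of all windows. The Oasl2 window matched none of these patterns. A match is a run of letters and not a measured binding site, and a window without one says only that these letters are not in it.

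**Figure D1:**
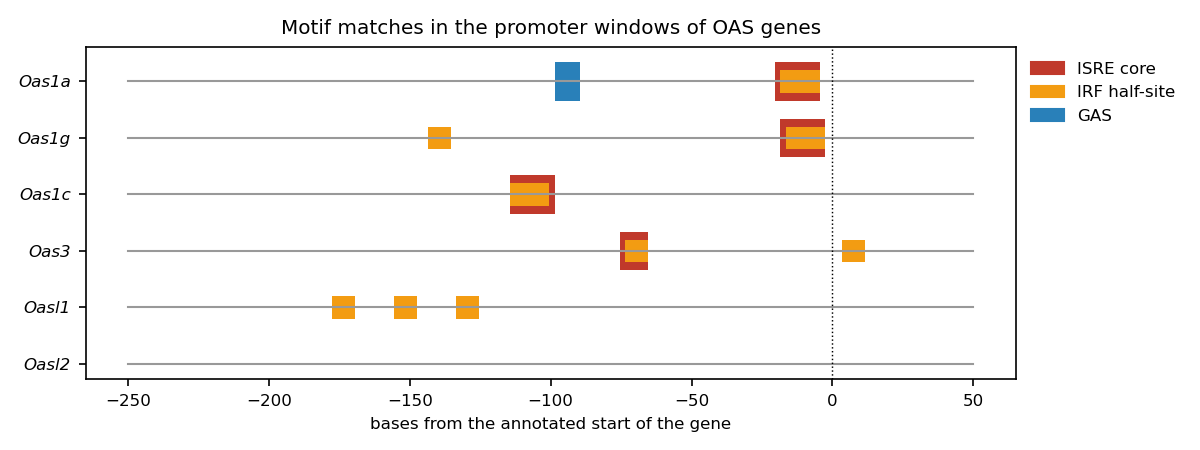
Matches of the ISRE core, the half-site and the GAS element along the promoter windows of 6 OAS genes, with the distance from the annotated start in bases on the horizontal axis. Oas1a and Oas1g carry their core matches within 20 bases of the start, Oas1c and Oas3 farther away, and the Oasl2 line is empty.

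Values are log2 expression. Over the 30 arrays, array medians lay between 3.24 and 3.38, and a level near them is close to the floor of the assay. Clpp was 3.11 to 3.65 in the knockout group means, against 6.38 to 9.18 in the wild-type group means. The tissue markers followed the labels, since each tissue's own list averaged at least 7.78 on every array of that tissue and no more than 5.96 in any other tissue. In testis the 10 sperm markers averaged 6.86 to 7.87 on knockout arrays, against 11.8 to 12.2 on wild-type arrays, and their part in the testis values was not tested. Wild-type testis replicate 3 carried epididymis transcripts and wild-type muscle replicate 1 carried sperm transcripts, and values without them are given beside the calls in those tissues. Knockout liver replicate 1 had the largest 3′ minus 5′ difference of Gapdh probe sets (1.66). In testis this difference was 0.51 to 0.57 on knockout arrays, against 0.86 to 1.17 on wild-type arrays. The same difference of actin probe sets in testis was 1.14 to 1.30 in knockout, against 1.39 to 2.03 in wild type. In liver the actin difference was 1.79 to 2.39 in knockout, against 1.67 to 1.77 in wild type. The part of these differences in the testis and liver values was not tested. In bulk tissue, fewer cells of a type and less RNA per cell cannot be told apart.

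Oas1g, an active synthetase, rose in knockout liver, muscle, brain and heart. In liver it read 7.57, 7.56 and 7.50 on the knockout arrays, against 5.29, 5.30 and 5.30 on the wild-type arrays. The groups were far apart and each was tight, and the log2 difference was 2.24 ± 0.17 (SE, n = 3 per genotype; limma adjusted p = 4.33e-09), a 4.74-fold rise and the 5th largest of the 156 rises called in liver. In heart it read 6.98, 7.04 and 7.28 on knockout arrays, against 5.21, 5.52 and 5.06 on wild-type arrays, a difference of 1.83 ± 0.17 (adjusted p = 1.47e-07; 3.57-fold). The wild-type levels of liver and heart were alike, and neither tissue's groups overlapped.

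In muscle Oas1g read 5.40, 5.62 and 6.0 in knockout, against 3.84, 4.05 and 4.62 in wild type. All knockout arrays were above all wild-type arrays, with a difference of 1.50 ± 0.17 (adjusted p = 5.23e-06), or 1.34 without wild-type replicate 1 (8.1e-05). In brain it read 4.94, 4.85 and 5.34 in knockout, against 3.87, 3.99 and 3.77 in wild type, and the difference was 1.17 ± 0.17 (adjusted p = 0.000367). The brain wild-type level was under 4, so that rise is read as a lower bound. With each tissue fitted on its own arrays, the muscle and brain calls were lost (adjusted p = 0.0871 and 0.0612). In testis the values were 3.83, 4.09 and 4.06 in knockout and 3.97, 3.89 and 3.78 in wild type. These overlapped, and the difference of 0.11 had a 95% interval of -0.23 to 0.46.

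**Figure D2:**
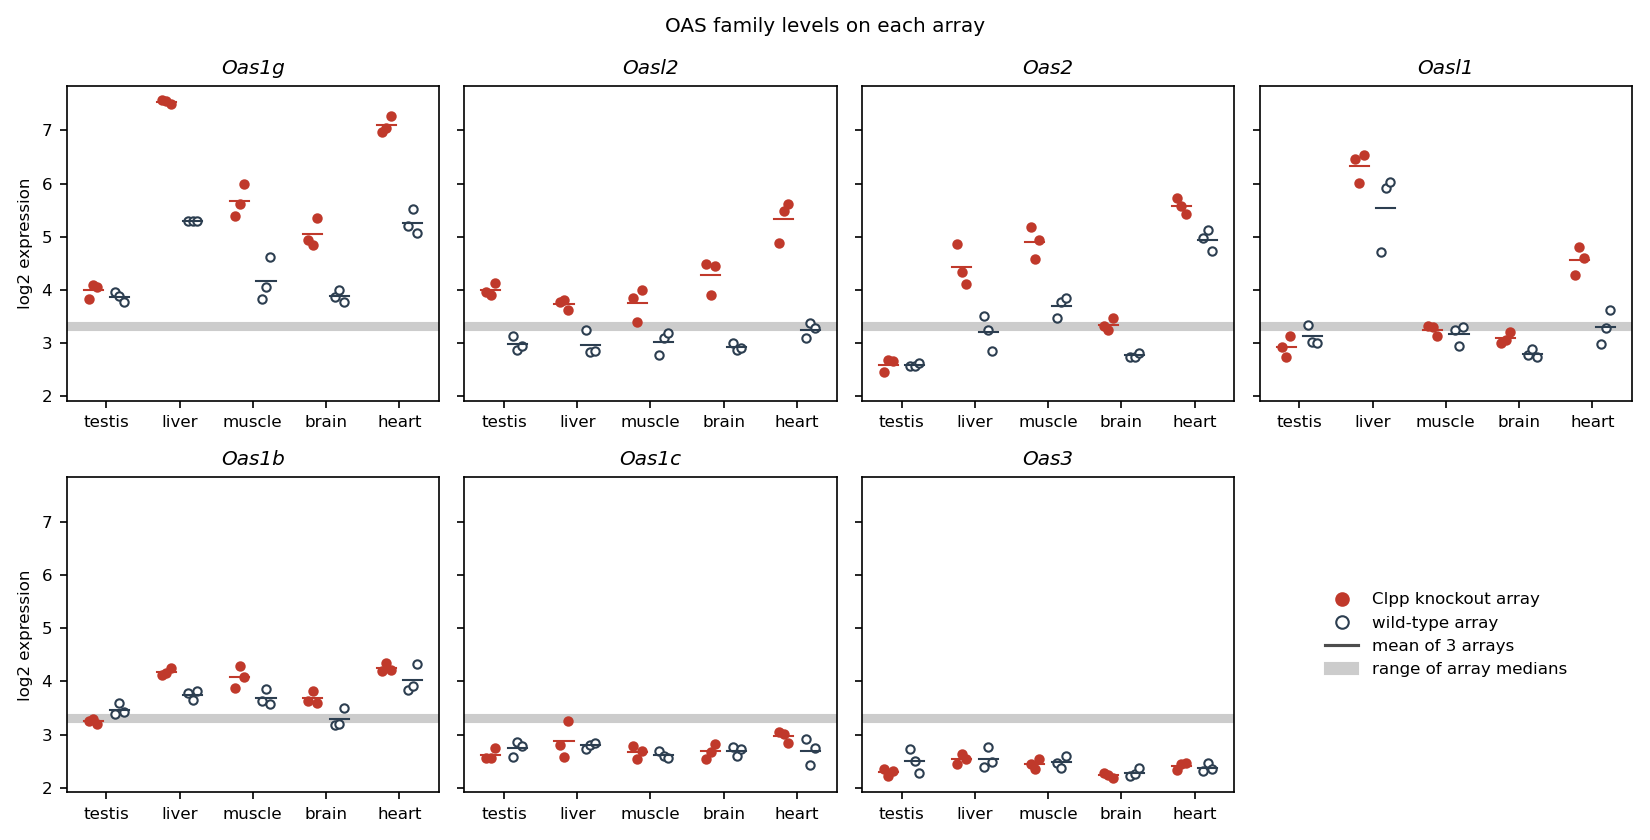
Log2 expression of the 7 measured OAS genes on every array, by tissue, with Clpp knockout arrays as filled points left of wild-type arrays as open points. Bars are means of 3 arrays, and the grey band is the range of array medians, 3.24 to 3.38. Oas1g stands clear of the band in liver and heart, while Oas3 stays below it on every array and Oas1c reaches it on 1 knockout liver array.

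Oas1b, the flavivirus resistance gene listed as a pseudogene in the reference strain, had small differences, none of them called. It read 4.12, 4.15 and 4.26 in knockout liver, against 3.79, 3.65 and 3.81 in wild-type liver. In muscle it read 3.88, 4.28 and 4.09 in knockout and 3.63, 3.85 and 3.58 in wild type, and in brain 3.63, 3.82 and 3.59 in knockout and 3.18, 3.20 and 3.50 in wild type. Knockout arrays lay above wild-type arrays in these 3 tissues, with differences of 0.43, 0.40 and 0.39 ± 0.12 each and adjusted p of 0.0709, 0.119 and 0.303. Array weights brought the liver value (adjusted p = 0.0366) and the brain value (0.0121) under the threshold, and quantile normalization did so for muscle (0.0408). In heart Oas1b read 4.19, 4.35 and 4.21 in knockout and 3.83, 3.91 and 4.32 in wild type, which overlapped. In testis it read 3.26, 3.29 and 3.20 in knockout and 3.39, 3.59 and 3.43 in wild type, so every knockout array was below every wild-type array, at -0.22 ± 0.12 (adjusted p = 0.135).

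Oas1c stayed dim. Over all 30 arrays its lowest, median and highest values were 2.44, 2.74 and 3.26, and its differences ran from -0.12 to 0.27 with none of 5 called and none at an unadjusted p below 0.05. Its window holds the ISRE core, on the opposite strand to the gene.

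Oas2, a synthetase with a repeated unit, rose in liver and muscle. In liver it read 4.87, 4.34 and 4.11 in knockout, against 3.52, 3.25 and 2.86 in wild type, a difference of 1.23 ± 0.18 (adjusted p = 0.000105). In muscle it read 5.19, 4.58 and 4.94 in knockout, against 3.47, 3.78 and 3.85 in wild type, at 1.20 ± 0.18 (adjusted p = 0.000264), or 1.09 without wild-type replicate 1 (0.00355). Both wild-type levels were under 4, so both rises are read as lower bounds. Both calls were lost with each tissue fitted alone (adjusted p = 0.125 and 0.0871). In heart, where Oas2 was brightest, it read 5.74, 5.59 and 5.42 in knockout and 4.97, 5.13 and 4.73 in wild type. The groups did not overlap, and the difference of 0.64 ± 0.18 missed the threshold narrowly (adjusted p = 0.0552). It was called with a replicate block (adjusted p = 0.0292), with array weights (0.0221), with quantile normalization (0.0462) and among genes with a group mean of at least 4 (0.0490). In brain it read 3.33, 3.25 and 3.47 in knockout and 2.74, 2.75 and 2.81 in wild type, at 0.58 ± 0.18 (adjusted p = 0.241, and 0.0299 with array weights). In testis Oas2 read 2.45, 2.69 and 2.65 in knockout and 2.56, 2.57 and 2.62 in wild type, which overlapped.

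Oas3, the largest synthetase of the family, stayed under the array medians on every array. Its lowest, median and highest values over the 30 arrays were 2.18, 2.38 and 2.77. Its differences ran from -0.20 in testis to 0.03 in heart, with none of 5 called and none at an unadjusted p below 0.05. Without wild-type testis replicate 3 the testis difference was -0.31 (adjusted p = 0.0218), at a level under the array medians.

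Oasl1, which lacks synthetase activity, was bright in liver and rose in heart. In heart it read 4.28, 4.80 and 4.60 in knockout, against 2.98, 3.28 and 3.63 in wild type, a difference of 1.26 ± 0.23 (adjusted p = 0.00262) from a wild-type level near the floor. In liver it read 6.47, 6.01 and 6.53 in knockout and 4.71, 5.91 and 6.03 in wild type. Wild-type replicate 1 stood below the other 2, and the difference of 0.79 ± 0.23 was not called (adjusted p = 0.0789). It came to 0.37 without wild-type replicate 1 (adjusted p = 0.413), and to 0.97 and 1.03 without replicates 2 and 3 (0.0446 and 0.0192), so this value rests on single arrays. In muscle Oasl1 read 3.32, 3.31 and 3.13 in knockout and 3.26, 2.95 and 3.30 in wild type. In brain it read 3.01, 3.05 and 3.22 in knockout and 2.77, 2.89 and 2.74 in wild type, and in testis 2.93, 2.73 and 3.14 in knockout and 3.34, 3.02 and 3.01 in wild type. Arrays overlapped in muscle and testis and not in brain, where the difference of 0.29 had a 95% interval of -0.19 to 0.77.

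Oasl2, the active OAS-like enzyme, rose in all 5 tissues from wild-type levels between 2.93 and 3.26, at or under the array medians. Each rise of Oasl2 is read as a lower bound, a reading that was not tested. In heart it read 4.88, 5.49 and 5.62 in knockout, against 3.10, 3.38 and 3.28 in wild type, at 2.08 ± 0.18 (adjusted p = 5.45e-08). In brain it read 4.49, 3.91 and 4.45 in knockout, against 3.0, 2.87 and 2.91 in wild type, at 1.36 ± 0.18 (adjusted p = 0.000107). No arrays overlapped in either tissue, and the brain call was lost in a fit of brain alone (adjusted p = 0.0546). In testis it read 3.97, 3.90 and 4.13 in knockout, against 3.13, 2.87 and 2.94 in wild type, at 1.02 ± 0.18 (adjusted p = 2.73e-05), or 1.0 without wild-type replicate 3 (0.000191).

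The liver and muscle rises of Oasl2 were smaller and less firm. In liver it read 3.78, 3.81 and 3.63 in knockout, against 3.24, 2.83 and 2.85 in wild type, at 0.77 ± 0.18 (adjusted p = 0.0189). In muscle it read 3.85, 3.39 and 4.0 in knockout, against 2.78, 3.10 and 3.18 in wild type, at 0.73 ± 0.18 (adjusted p = 0.0409). The arrays did not overlap in either tissue. Leaving out knockout replicate 1 (adjusted p = 0.0705) or 2 (0.0684) ended the liver call, as did leaving out wild-type replicate 2 (0.0838) or 3 (0.0783), and a fit of liver alone (0.120). The muscle call ended on leaving out knockout replicate 1 (adjusted p = 0.133) or 3 (0.187), or wild-type replicate 1 (0.197), 2 (0.0591) or 3 (0.0580), and in a fit of muscle alone (0.221).

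**Figure D3:**
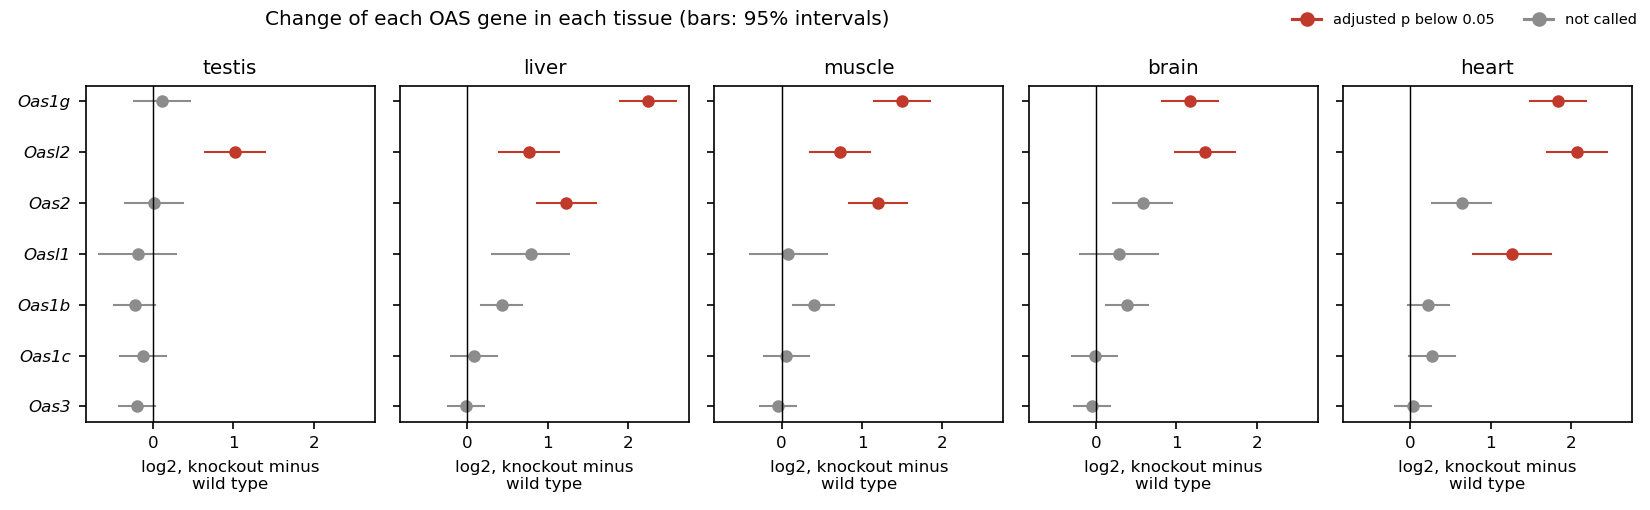
Log2 difference, knockout minus wild type, of each OAS gene in each tissue with its 95% interval, from the fit over all arrays. Red points passed an adjusted p below 0.05 and grey points did not. Oasl2 is red in all 5 panels, Oas1g in all but testis, and no point lies on the left as a call.

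Of the 35 comparisons of a member in a tissue, 12 were called higher in knockout and 0 lower. Shares of all genes called lower in single tissues are not given here, so later calls lower stand without one. In liver 3 of 7 members were called higher, against 0.912% of all genes, and 4 had every knockout array above every wild-type array, against 7.9%. In muscle these were 3 and 4 members, against 0.778% and 9.36% of all genes, and in heart 3 and 4 members, against 1.11% and 7.73%. In brain they were 2 and 5 members, against 0.234% and 9.18%. In testis 1 member, Oasl2, was called higher and separated in this way, against 32.8% and 35.3% of all genes, so the family's count there was not above the background. The median difference of the 7 members was 0.77 in liver, 0.40 in muscle, 0.39 in brain, 0.64 in heart and -0.12 in testis, while the all-gene medians lay between -0.01 and 0.02.

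Few genes of the array shared the pattern over tissues. Oas1g and Oasl2 were called higher in each of liver, muscle, brain and heart, as were 13 genes in all (0.076%). With Oas2, they also had every knockout array above every wild-type array in each of these 4 tissues, as did 28 genes (0.164%). Oasl2 was called higher in all 5 tissues, as were 8 genes in all (0.0468%).

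The differences averaged over the 5 tissues were called for 5 members, against 17.1% of all genes called higher. They were 1.37 ± 0.08 for Oas1g (adjusted p = 1.58e-12), 1.19 ± 0.08 for Oasl2 (5.38e-11), 0.73 ± 0.08 for Oas2 (8.29e-08), 0.45 ± 0.10 for Oasl1 (0.00157) and 0.24 ± 0.06 for Oas1b (0.00125). Averaged over liver, muscle, brain and heart, a choice made after seeing the data, the same 5 were called, against 1.47% of all genes. Oas1g then stood at 1.69 ± 0.08 (adjusted p = 4.96e-13) and Oas1b at 0.36 ± 0.06 (0.00119). The small differences of Oas1b in single tissues thus passed the test once averaged.

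Whether the difference between genotypes was itself different in testis was tested directly. Testis minus the mean of the other 4 tissues was -1.57 ± 0.19 for Oas1g (adjusted p = 8.88e-08), -0.90 ± 0.20 for Oas2 (0.000339), -0.80 ± 0.26 for Oasl1 (0.0117) and -0.58 ± 0.14 for Oas1b (0.000805). These 4 were called lower, as were 23.3% of all genes. In testis all 4 averaged under 4 in both genotypes, from 2.58 for wild-type Oas2 to 3.99 for knockout Oas1g. The part of these low levels in the contrast was not tested. For Oasl2 the same contrast was -0.22 ± 0.20, with a 95% interval of -0.63 to 0.20 (adjusted p = 0.395). An F test over the 5 tissues called 5 members, against 52.3% of all genes. Among liver, muscle, brain and heart alone, it called Oasl2 (adjusted p = 0.00689), against 1.66% of all genes, and missed for Oas1g (0.0585), Oasl1 (0.150), Oas2 (0.239) and Oas1b (0.899).

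Macrophage markers moved with genotype in some of these tissues. In testis 11 of 13 macrophage and microglia markers were called higher, where 32.8% of all genes were. The list averaged 5.65 to 5.96 on knockout arrays, against 4.40 to 4.67 on wild-type arrays. In heart 1 of 13, Fcgr1, was called higher, where 1.11% of all genes were. The heart values of the list averaged 6.15 to 6.84 on knockout arrays, against 5.72 to 6.08 on wild-type arrays. None of the 13 was called in liver, muscle or brain, where 0.912%, 0.778% and 0.234% of all genes were called higher. There the list averaged 5.37 to 5.70 in knockout and 5.09 to 5.43 in wild-type liver, 4.28 to 4.62 in knockout and 3.98 to 4.75 in wild-type muscle, and 5.03 to 5.10 in knockout and 4.61 to 4.98 in wild-type brain. The 11 lymphocyte markers averaged 2.71 to 3.28 on every array, at or under the array medians, with Cd2 called higher in muscle, Cd79b higher in heart and Klrb1c lower in testis. Of 6 neutrophil markers Mpo was called lower in testis and none higher. Of 4 plasmacytoid dendritic cell markers 1, Tcf4, was called higher in testis, which is not above the 32.8% of all genes there. The part of these cells in the OAS differences was not tested.

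The heart arrays were uneven in some heart markers. The list of 5 averaged 8.48 to 12.9 on knockout arrays, against 8.90 to 10.2 on wild-type arrays, and none of the 5 was called. The atrial light chain Myl7 averaged 9.67 ± 5.27 in knockout heart and 4.72 ± 2.37 in wild-type heart (SD, n = 3; limma adjusted p = 0.0552), while Tnni3, a troponin of all heart muscle, averaged 12.90 ± 0.06 in knockout and 13.02 ± 0.02 in wild type. Alb, a liver marker, averaged 6.76 ± 1.66 in knockout heart and 4.04 ± 1.30 in wild-type heart (adjusted p = 0.0514). The part of this unevenness in the heart differences was not tested. With each heart array left out in turn, the heart difference ran from 1.73 to 1.96 for Oas1g, from 1.93 to 2.30 for Oasl2 and from 1.11 to 1.43 for Oasl1, and all 3 calls held.

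In wild-type mice the members differed in where they were highest. Of the 70 comparisons of a member between 2 wild-type tissues, 25 were called. The share of all genes called was 65.6% between testis and liver, 64.5% between testis and muscle, 69.1% between testis and brain, 65.4% between testis and heart and 49.8% between liver and muscle. It was 60.7% between liver and brain, 48% between liver and heart, 59.4% between muscle and brain, 35.9% between muscle and heart and 58.3% between brain and heart. Read against these shares, the count for the family is not above the background.

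Oas1g averaged 5.30 ± 0.01 in wild-type liver and 5.26 ± 0.23 in heart (SD, n = 3), which did not differ beyond their spread (adjusted p = 0.914). It followed at 4.17 ± 0.40 in muscle, below heart (adjusted p = 8.56e-06), and at 3.88 in both brain and testis, neither step called. Oas2 had another order. It was highest in heart at 4.94 ± 0.20, then muscle at 3.70 ± 0.20 (adjusted p = 2.42e-06), liver at 3.21 ± 0.33 (0.0209) and brain at 2.77 ± 0.04 (0.0346), each below the tissue before it, with testis at 2.58 ± 0.03 not separated from brain (0.361). Oasl1 was highest in liver, at 5.55 ± 0.73 in liver, against 3.30 ± 0.32 in heart (adjusted p = 5.83e-09), and heart, muscle, testis and brain did not separate from their neighbours. Oas1b ran from 4.02 ± 0.26 in heart to 3.29 ± 0.18 in brain, with no neighbours in the order called. No pair of tissues was called for Oasl2 or Oas1c, and 1 of 10 was for Oas3.

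Members differed in how closely they moved together within tissues. After each value was centred on the mean of its tissue, Pearson's r over the 30 arrays was 0.89 between Oas1g and Oas2, 0.81 between Oas1g and Oasl2 and 0.67 between Oas2 and Oasl2. Oas1g gave 0.69 with Oas1b and 0.68 with Oasl1, while Oas2 and Oasl1 gave 0.43. The dim members moved less with the rest, at -0.13 to 0.26 for Oas3 and -0.13 to 0.42 for Oas1c. The points share arrays and the genotype difference itself, so these values are descriptions.

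The genes most like a member were sought by the same measure among 10205 genes with a group mean of at least 6 in any group, knockout included. Ifit1, Gm9706, Usp18, Phf11a and Gbp3 reached 6 only in knockout groups. The measure keeps the genotype difference, so calls of the genes found follow from how they were picked and are descriptions. For Oas1g they were Ifit1, which binds viral RNA with an unmethylated cap (r = 0.91), Gm9706 (0.90) and Usp18, which removes ISG15 and restrains the interferon receptor (0.90). For Oasl2 they were Lgals3bp, a secreted glycoprotein (0.95), Ifi27, an interferon-induced membrane protein (0.93), and Usp18 (0.92). For Oas2 they were Phf11a (0.80), Rsad2, the antiviral enzyme viperin (0.80), and Ifit1 (0.79). Ifit1 was called higher by 1.83 in liver, 2.23 in muscle, 2.73 in brain and 3.86 in heart, and stood at 0.12 in testis, uncalled. Ifi27 was called higher in liver, brain, heart and testis, where it differed by 1.82. Over the 24 arrays without testis the closest genes were Xaf1 for Oas1g (0.94), Lgals3bp for Oasl2 (0.96) and Gbp3, a guanylate-binding protein, for Oas2 (0.87). Next came Ifit1 (0.91) and Usp18 (0.91) for Oas1g, and Ifit1 (0.94) and Ifi27 (0.94) for Oasl2. For Oas2 they were Trim30a (0.87) and Gstm1 (0.86).

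The rest of the pathway was read from lists by role. Of the interferon genes themselves, 11 of 19 were measured and none was called in any tissue. Their highest group mean was 3.09, under the array medians, and the differences ran from -0.17 to 0.30 in 55 comparisons, 1 of them at an unadjusted p below 0.05. No change in interferon RNA was detected on these arrays.

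The interferon receptor and its signalling were read from 12 measured genes. Irf7, the factor that amplifies type I interferon, averaged 7.14 ± 0.36 in knockout heart, against 4.51 ± 0.30 in wild-type heart, a rise of 2.62 ± 0.20 (adjusted p = 3.88e-09). It also rose in liver (1.36), muscle (1.32) and brain (0.93), and stood at 0.08 in testis, uncalled, as Oas1g did. Usp18 rose in all 5 tissues, as Oasl2 did, by 4.06 in heart, 2.20 in brain, 2.03 in liver, 1.88 in muscle and 0.97 in testis. Irf9, the DNA-binding subunit of the complex at the ISRE, rose in heart (1.46) and testis (0.66). Liver, muscle and brain had 2 called higher each, Irf7 and Usp18, where 0.912%, 0.778% and 0.234% of all genes were. Heart had 3 called higher, where 1.11% of all genes were. Testis had 8 higher and 2 lower, where 32.8% of all genes were called higher. The share of all genes called lower in testis is not given here.

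Among 8 sensors and effectors of double-stranded RNA, heart had 3 called higher. These were Ifih1, the sensor MDA5 (1.43 ± 0.21), Ddx58, the sensor RIG-I (1.37 ± 0.21), and Zbp1, which binds nucleic acid in the Z form (0.99 ± 0.21). Muscle had Ifih1 (1.06) and liver had Dhx58, the regulator LGP2 (0.71), while brain had none. In testis Ifih1 (1.30), the adaptor Mavs (0.98) and the RNA editor Adar (0.87) were called higher and Dhx58 was called lower (-2.03). The 3 of 8 called higher there stand against 32.8% of all genes, near the background, while the shares of all genes called higher were 1.11% in heart, 0.778% in muscle and 0.912% in liver. Eif2ak2, the kinase PKR, was called in no tissue and its group means lay under 4, as did all but 1 of those of Cgas and Sting1, the DNA-sensing pair, also called in none. Pde12, which degrades the OAS product, was called higher in testis (1.22 ± 0.13) and lower in liver (-0.56 ± 0.13). Abce1, listed with it and also a ribosome recycling factor, was called higher in testis (0.76 ± 0.12).

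**Figure D4:**
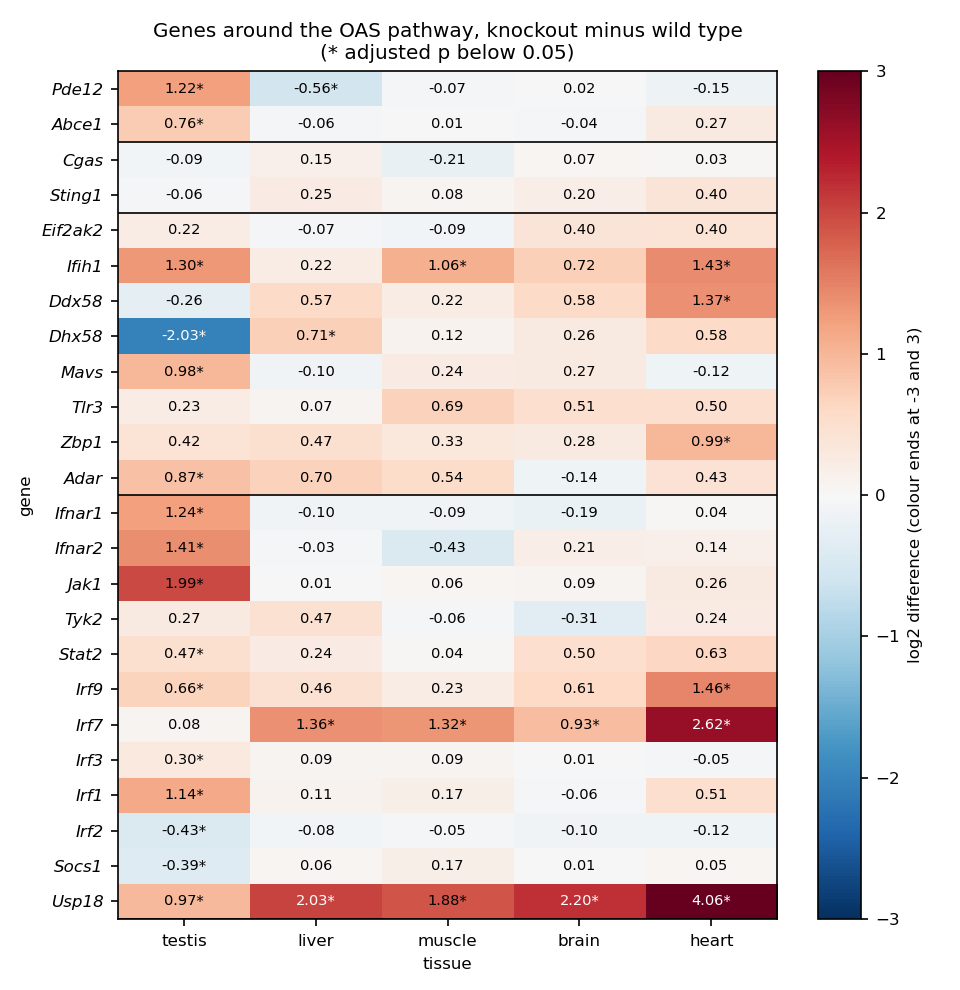
Log2 difference, knockout minus wild type, of 24 genes around the OAS pathway in the 5 tissues, with an asterisk where the adjusted p was below 0.05. Lines separate the lists for the OAS product, DNA sensing, RNA sensing and interferon signalling. Irf7 is marked in all tissues but testis and Usp18 in all 5.

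Genes beside the members on chromosome 5 gave no call outside testis. The 4 other Oas1 genes with a probe set, Oas1d, Oas1e, Oas1f and Oas1h, read 2.22 to 3.62 over the 30 arrays, near or under the array medians. They gave differences of -0.26 to 0.19. None of their 20 comparisons was called, and 0 had an unadjusted p below 0.05. Those in testis stand against 32.8% of all genes called higher there. The 12 measured genes that flank both clusters gave 0 calls in 48 comparisons in liver, muscle, brain and heart, 6 of them at an unadjusted p below 0.05, with differences from -0.76 to 0.40. Of all genes, 0.912% in liver, 0.778% in muscle, 0.234% in brain and 1.11% in heart were called higher. The absence of a call higher is therefore near the background in these tissues. In testis 8 of the 12 were called higher, where 32.8% of all genes were, and 3 lower, for which the share of all genes is not given here.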

How the data were processed

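RNA was hybridised to Affymetrix mouse expression arrays. The deposited values are log2 expression from RMA in R 2.14.0, per the submitters' processing notes. Whether all 30 arrays went through it together is not given in the sources used here, and no further normalization was applied. Of 45141 probe sets, 28898 had 1 gene symbol, 551 several and 15692 none, and a gene was its brightest probe set by mean. A linear model with a mean for each of the 10 groups (limma 3.58.1, R 4.3.3; 20 residual degrees of freedom) was applied to 17097 genes, and adjusted p-values are limma's with Benjamini-Hochberg adjustment over all genes, two-sided, called below 0.05. Where the dimmer group averaged below 4, a rise is a lower bound. The number of arrays, 3 per group, limits the precision. The fit was tested on simulated data. All members were named in every tissue, pathway genes where called or where a role is explained, and most-like genes as the 3 highest correlations. The members and lists were chosen with earlier results of these data known. Alternatives were separate fits, a replicate block, a random block for genotype and replicate number, other priors, weights, scalings, filters and probe rules. Arrays were also left out in turn.

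Same-numbered knockout and wild-type arrays did not deviate together by a correlation over 0.1 in all 3 pairs of any tissue, so replicate numbers were not taken as pairs.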

Additional observations from a re-analysis of the deposited data

Results flagged for a closer look

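The knockout difference of 5 members varied between the 5 tissues by the moderated F test, as it did for 52.3% of all genes. The limma adjusted p was 4.73e-07 for Oas1g, 0.000336 for Oasl2, 0.000764 for Oas2, 0.00389 for Oasl1 and 0.0123 for Oas1b. Oas1g differed by 2.24 in liver and by 0.11 in testis, and Oas2 by 1.23 in liver and by 0.02 in testis. Oasl2 differed most in heart (2.08) and least in muscle (0.73). Oasl1 differed by 1.26 in heart and by -0.19 in testis, and Oas1b by 0.43 in liver and by -0.22 in testis.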

How the results depend on the processing

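No member's called value changed sign under any alternative tried. Of 276 alternative values of the 17 called differences, 17 lost the call, and of 425 of the 25 uncalled ones, 12 gained it. With each tissue fitted alone, members called fell to 1 in liver and 0 in muscle and brain, where 31, 15 and 25 of all genes were called, and heart and testis stayed within 1.5 times. Only Oas1g lies above the median of the overall means, and a test of such genes alone called 0 members in testis, 1 each in liver, muscle, brain and heart, 1 in the mean over tissues, in the F test and in the testis contrast, and 6 pairs of wild-type tissues. Counts in these alternatives take calls in either direction. Array weights gave 4 calls in brain, where 190 of all genes were called. Leaving out wild-type testis replicate 3, alone or with wild-type muscle replicate 1, gave 2 in testis. In these 2 settings 9292 and 9316 of all genes were called in testis, and the member added was Oas3, which was called lower (-0.31). The F test among 4 tissues, chosen after seeing the data, gave 1.

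Leaving out each array in turn gave 1 to 2 members called in testis, 2 to 4 in liver, 2 to 3 in muscle, 2 in brain, 3 to 4 in heart, 5 in the mean over 5 tissues, 4 to 5 in the F test, 4 to 5 in the testis contrast and 23 to 28 pairs of wild-type tissues. With a replicate block the counts were 1 in testis, 3 in liver, 3 in muscle, 2 in brain, 4 in heart, 5 in the mean, 5 in the F test, 4 in the testis contrast and 22 pairs of tissues. The numbers are not shown to pair the arrays. Genotype and replicate number as a random block across tissues changed no count (correlation 0.00655). The labels do not say that a shared number is a shared animal, so this cannot tell whether shared animals matter. Levels near 3 limit what can be said of Oas1c, Oas3 and wild-type Oasl2.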
